A study of Mus musculus with 6 samples.

Results

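The 10 genes of the Notch pathway described here, the 3 receptors Notch1, Notch2 and Notch3, the 3 ligands Dll1, Jag1 and Jag2, and the 4 transcription factors Hes1, Hes6, Hey1 and Heyl, were measured in muscle cell cultures from Sfpq knockout and control mice. They were a given list of symbols, and all 10 were found among the 34656 genes of each library. Each was measured by 1 RefSeq transcript accession, and 5 of them overlap another annotated gene, with 0 overlapping a protein-coding one. Primary myoblasts, the muscle precursor cells, came from skeletal muscle of male mice aged 1 month, were grown in medium with 20% fetal bovine serum and 2.5 ng/mL of basic fibroblast growth factor, and were then held for 4 days in 2% horse serum, in which such cells fuse into myotubes. The knockout group (SFPQ_KO, n = 3) came from SfpqSM-KO mice, in which Sfpq, a nuclear RNA-binding protein, is lost in skeletal muscle, and the control group (Cont, n = 3) from control mice. The driver of the deletion, its exons and the genotype of the control mice are not stated in the labels used here. The series names 3 mice per genotype, but no label says which animal or dish gave which library, so the p-values reflect the spread of these 6 libraries, which may be technical.

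Notch signalling passes between touching cells. A ligand on one cell binds a Notch receptor on its neighbour, the receptor is cut by an ADAM protease and then by gamma-secretase, and the freed intracellular part joins Rbpj and a Mastermind protein in the nucleus to switch on repressors of the Hes and Hey families. In muscle the pathway is known for keeping satellite cells, the stem cells of muscle, quiescent and for holding back differentiation of myoblasts. Hes6 stands apart among these factors: it is not a usual Notch target, it counteracts Hes1, and it is known to favour myogenic differentiation.

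Sfpq was lower in each knockout library (14.1 to 19.3 TPM, a level per transcript length that sums to the same total in each library) than in each control library (48.6 to 60.5 TPM), with a log2 difference of −1.57 that did not pass the test used here (limma adjusted p = 0.0531). Per library 12216 to 12484 genes reached 1 TPM, and 12461 genes were tested. The read depth is unknown, since TPM does not keep it. Markers of differentiated muscle summed to 54800 to 56400 TPM in knockout and 47600 to 49200 TPM in control over 8 genes, led by the skeletal actin Acta1 and the fast troponin gene Tnnt3. Without Acta1 the other 7 summed to 22000 to 26600 TPM in knockout and 22800 to 26400 TPM in control, and the groups overlapped. Satellite cell and myoblast genes were present too, led by the regulator Myod1 at 274 to 619 TPM and the cadherin gene Cdh15 at 197 to 352 TPM. In such bulk cultures, fewer cells of a type and less RNA per cell cannot be told apart. Among genes of other cell types that use the Notch pathway, the endothelial markers were at or near 0 and the mural markers were mixed. The 6 endothelial markers summed to 0.411 to 1.02 TPM in knockout and 0.61 to 1.08 TPM in control, with Emcn listed at 0 in all 6 libraries. The mural cell genes Rgs5, Kcnj8 and Myh11 did not exceed 0.49 TPM, while Pdgfrb lay between 1.55 and 4.49 TPM. The whole mural list of 6 genes summed to 24.4 to 36.1 TPM in knockout and 30.8 to 53.5 TPM in control, most of it Abcc9, lower in each knockout library, and Cspg4. The 5 fibroblast markers summed to 8.72 to 16.7 TPM and 9.13 to 13.8 TPM, most of it Ly6a, and Lum did not exceed 0.02 TPM. Dcn, next to Ly6a by mean level, stood at 4.39 TPM in control replicate 1 and at most at 0.79 TPM in the other libraries. The Schwann and immune cell lists stayed at or below 1.46 TPM in each library, with the immune genes Ptprc and Adgre1 listed at 0 in all 6. The part of other cell types in the results was not tested.

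No Notch gene passed the test between genotypes, as no gene did, Sfpq included. Each was tested as knockout minus control on log2(TPM + 1) with limma and Benjamini-Hochberg adjustment over all 12461 genes, of which 0 were called higher (0%) and 0 lower (0%), and the adjusted p of the 10 genes ran from 0.268 to 0.989. Of the 10, 7 had lower and 3 higher values in knockout (64.5% of all tested genes were lower), with a median log2 difference of −0.10 against −0.07 for all tested genes. After median-of-ratios scaling 5 of the 10 were lower, with medians of −0.04 and −0.001. At an unadjusted p under 0.05 there was 1 of the 10, Dll1, on the lower side, where 9.62% of all tested genes lay (1199 genes, and 2.68% or 334 genes on the higher side). The 1 gene whose groups did not overlap was again Dll1, lower in knockout, a pattern shown by 15.3% of all tested genes, while 4.27% lay wholly higher. The lists were drawn up with earlier results of these data known, so these counts describe the genes and do not test the pathway.

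**Figure D1:**
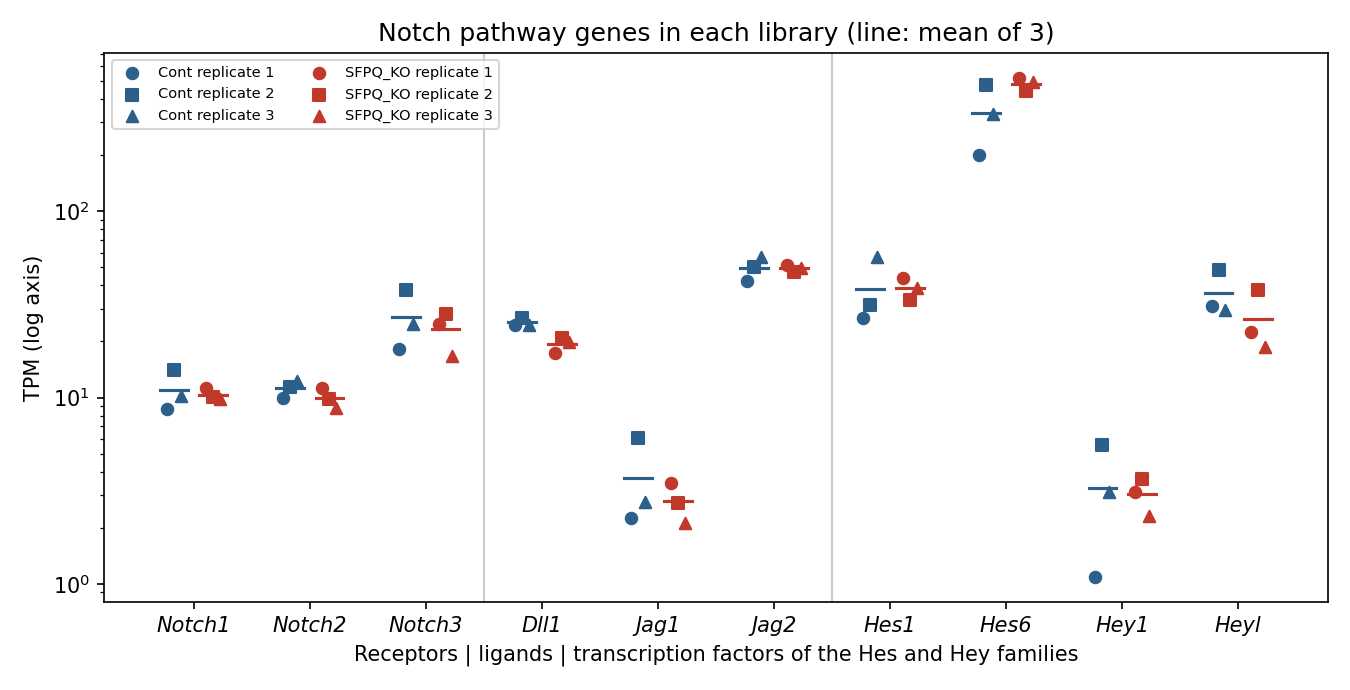
TPM on a log axis for the 10 genes in each of the 6 libraries, by role; colour marks the genotype, the symbol the replicate number and the line the mean of 3. Hes6 lies above all others, Dll1 is the gene whose genotypes do not overlap, and the control points of Jag1, Hey1 and Hes6 are spread widely.

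The levels spanned a wide range. Ordered by the mean over the 6 libraries in TPM, which is per length, they ran from Hes6 (410 TPM) through Jag2 (49.6), Hes1 (38.5), Heyl (31.3), Notch3 (25.1), Dll1 (22.3), Notch1 (10.7), Notch2 (10.6) and Jag1 (3.23) to Hey1 (3.14 TPM). Hes6 was more abundant than 97.3% of tested genes, and Hey1 than 15.5%. Only 3 steps in this order separated neighbours whose ranges over the 6 libraries did not overlap: Hes6 above Jag2, Dll1 above Notch1, and Notch2 above Jag1. Hes1 exceeded Heyl in 3 of 6 libraries, and Jag1 exceeded Hey1 in 3 of 6, so neither pair could be ordered.

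Among the receptors, Notch3 was the most abundant in every library. Notch3 (chromosome 17, 32120820 to 32166896 in GRCm38), a receptor prominent in satellite cells and in mural cells of vessels, stood at 24.9, 28.1 and 16.7 TPM in knockout replicates 1 to 3 and at 18.1, 37.7 and 24.9 TPM in control. The highest and the second lowest of these 6 values were both controls, and the groups overlapped (log2 difference −0.18, SE 0.29, 95% interval −0.87 to 0.52). Notch3 made up 47.4% to 58.5% of the summed TPM of the 3 receptors in knockout and 49.4% to 59.7% in control.

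Notch1 (chromosome 2, 26457902 to 26503822), the receptor first linked to satellite cell activation, read 11.3, 10.03 and 9.79 TPM in knockout and 8.66, 14.0 and 10.1 TPM in control. Control held both the lowest and the highest value, with a log2 difference of −0.05 (SE 0.17, 95% interval −0.46 to 0.37). Notch2, which acts beside Notch1 in keeping satellite cells quiescent, read 11.2, 9.86 and 8.75 TPM in knockout and 9.94, 11.4 and 12.2 TPM in control. Its knockout mean was 88.8% of the control mean, and the groups overlapped (log2 difference −0.16, SE 0.13, 95% interval −0.46 to 0.15). With a span of 136.8 kb (chromosome 3, 98013538 to 98150367 in GRCm38) Notch2 is the only one of the 10 genes over 100 kb, and the other 9 span 2.4 to 46.1 kb. The fourth receptor, Notch4, which is mainly endothelial, was between 0.07 and 0.13 TPM and was not tested.

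Among the ligands, Dll1 was lower in knockout and the 2 Jagged genes overlapped. Dll1, a Delta ligand known for keeping muscle progenitors undifferentiated, stood at 17.4, 20.9 and 19.9 TPM in knockout and at 24.4, 26.7 and 24.6 TPM in control. All 3 knockout libraries lay below all 3 control libraries, and the knockout mean was 76.8% of the control mean. The log2 difference was −0.37 (SE 0.10, 95% interval −0.61 to −0.13), with an unadjusted limma p of 0.00897 and an adjusted p of 0.268, so Dll1 did not pass. The control values were close together, with a coefficient of variation of 5.07%, the smallest of the 10 genes in control. After median-of-ratios scaling Dll1 was still lower without overlap, at 17.6 to 21.4 against 23.8 to 25.1.

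Jag2 (chromosome 12, 112907803 to 112929812), a Jagged ligand, was the most abundant of the 3 at 51.6, 47.1 and 49.4 TPM in knockout and 42.4, 50.3 and 56.8 TPM in control. The knockout values fell inside the control range (log2 difference −0.01, 95% interval −0.29 to 0.28). Jag1 (chromosome 2, 137081451 to 137116520), the ligand mutated in Alagille syndrome, was low, with 3.47, 2.73 and 2.11 TPM in knockout and 2.27, 6.05 and 2.76 TPM in control. Control replicate 2 stood above all others, and the other 5 libraries lay between 2.11 and 3.47 TPM (log2 difference −0.25, SE 0.31, 95% interval −0.98 to 0.48). Within a library, the ratio of Dll1 to Jag2 was 0.337, 0.445 and 0.403 in knockout and 0.576, 0.532 and 0.434 in control, so it overlapped at a single pair of libraries. Delta ligands Dll3 and Dll4 did not exceed 0.22 TPM.

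The sequence upstream of Dll1 is shown because it is the gene whose groups did not overlap. Dll1 lies on the minus strand of chromosome 17 (15367354 to 15376932). The 250 bases before its outermost RefSeq start, chr17:15376933-15377182 in GRCm38.p6, minus strand, are printed with matches to the E-box CANNTG, the sequence bound by basic helix-loop-helix factors such as MyoD and myogenin, in capitals.
Dll1 upstream: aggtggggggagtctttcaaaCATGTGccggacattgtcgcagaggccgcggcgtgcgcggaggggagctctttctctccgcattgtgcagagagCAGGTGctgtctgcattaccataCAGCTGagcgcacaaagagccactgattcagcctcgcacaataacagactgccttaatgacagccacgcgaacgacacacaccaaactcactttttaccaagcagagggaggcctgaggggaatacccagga
The 3 matches begin 229, 155 and 132 bases before that start. RefSeq lists a second, inner start at 15375823, whose 250 bases upstream hold 1 E-box match, 220 bases before it; they are not printed because they overlap an annotated Dll1 exon. The transcript measured here starts 956 bases inside the outermost start by GENCODE, nearer to the inner start, and a noncoding gene on the opposite strand, A930024N18Rik, has exons in this window and overlaps the Dll1 span. Since the use of strand in counting is not stated, reads from Dll1 and from this gene cannot be told apart there.

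Among the Hes and Hey genes, Hes6 had higher and Heyl lower mean values in knockout, and Hes1 and Hey1 were spread around equality. Hes6 stood at 519, 440 and 492 TPM in knockout and at 201, 474 and 333 TPM in control. Control replicates 1 and 3 were the lowest of the 6, and control replicate 2 lay within the knockout range, so the groups overlapped. The knockout mean was 144% of the control mean (log2 difference 0.61, SE 0.29, 95% interval −0.08 to 1.30, limma adjusted p = 0.449). After median-of-ratios scaling, an alternative chosen after seeing the data for this count, all 3 knockout libraries (450 to 526) lay above all 3 control libraries (205 to 444), where 9.33% of all tested genes did so and 9.11% lay wholly lower. Without control replicate 1 the log2 difference of Hes6 was 0.28, and without control replicate 2 it was 0.90.

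Heyl (chromosome 4, 123233556 to 123249870), a Hey family repressor and direct Notch target in satellite cells, read 22.4, 37.8 and 18.6 TPM in knockout and 31.2, 48.3 and 29.5 TPM in control. Knockout replicates 1 and 3 were the lowest of the 6, and knockout replicate 2 stood above 2 of the 3 controls. The log2 difference was −0.48 (SE 0.29, 95% interval −1.18 to 0.21, limma adjusted p = 0.542), and it ran from −0.77 without knockout replicate 2 to −0.26 without control replicate 2 (−0.28 without knockout replicate 3). Hes1 (chromosome 16, 30065357 to 30067796), a Notch target in many tissues, read 43.5, 33.3 and 38.8 TPM in knockout and 26.8, 31.4 and 57.0 TPM in control. Control held both extremes, and the log2 difference of 0.07 had a 95% interval of −0.58 to 0.72. Hey1 (chromosome 3, 8663359 to 8667038), a Hey family target of Notch, was low, at 3.12, 3.67 and 2.31 TPM in knockout and 1.09, 5.57 and 3.10 TPM in control. Its control values differed 5.09-fold between the highest and the lowest library, the widest of the 10 genes, and the log2 difference of 0.06 had a 95% interval of −0.89 to 1.01. A p that misses the threshold does not show that these levels were equal, and for Hes6, Hey1 and Heyl the intervals include a log2 change of 1 in at least 1 direction.

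**Figure D2:**
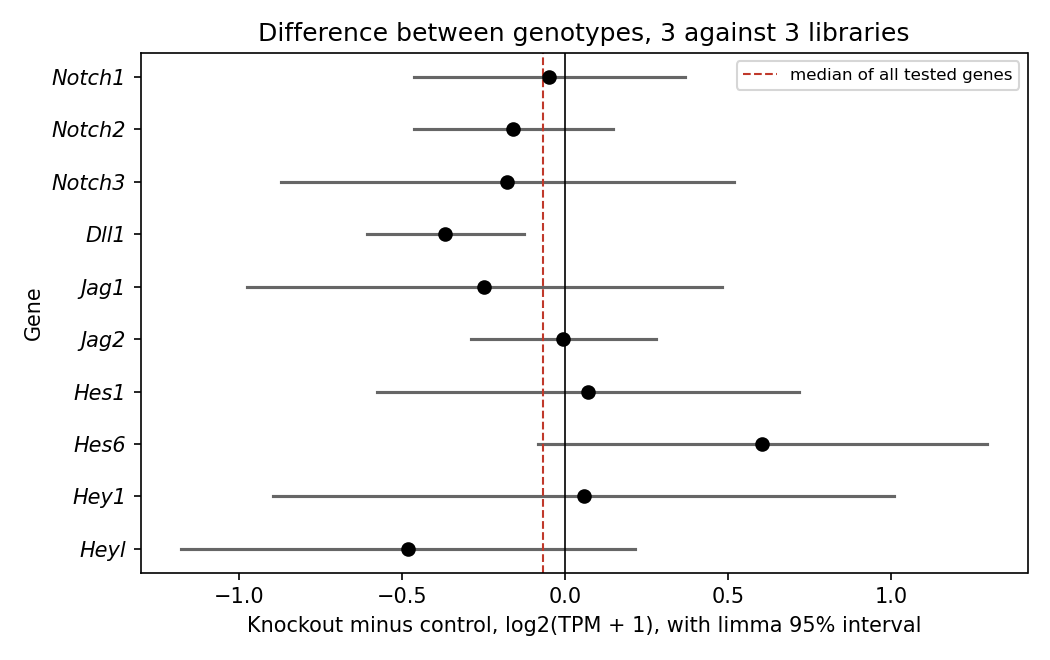
Knockout minus control on log2(TPM + 1) for each gene (points) with limma's 95% interval (bars), from 3 against 3 libraries. The interval of Dll1, −0.61 to −0.13, lies wholly below 0, and the dashed line marks the median of all tested genes at −0.07.

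The sequence upstream of Hes6 is shown because it had the highest level and the largest difference of the 10 genes, and both of its RefSeq starts are given. Hes6 lies on the minus strand of chromosome 1 (91411483 to 91414038) and overlaps no other annotated gene. The windows are chr1:91414039-91414288, before the outer start, and chr1:91413223-91413472, before the inner start. Which of these starts the measured transcript uses is not shown here. E-box matches and matches to the N-box CACNAG, the sequence that Hes proteins bind, are in capitals.
Hes6 outer: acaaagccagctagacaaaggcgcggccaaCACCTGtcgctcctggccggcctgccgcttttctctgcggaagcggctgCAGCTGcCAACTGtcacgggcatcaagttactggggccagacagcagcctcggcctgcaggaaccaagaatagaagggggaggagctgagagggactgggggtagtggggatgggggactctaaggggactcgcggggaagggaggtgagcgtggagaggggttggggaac
Hes6 inner: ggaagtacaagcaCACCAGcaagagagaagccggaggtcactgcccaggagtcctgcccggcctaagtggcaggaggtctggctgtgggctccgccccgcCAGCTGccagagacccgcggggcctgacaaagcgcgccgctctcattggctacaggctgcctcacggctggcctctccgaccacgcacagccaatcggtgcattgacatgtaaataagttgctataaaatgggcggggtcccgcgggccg
The outer window holds 3 E-box matches, which begin 220, 171 and 164 bases before the start. The inner window holds an N-box match 237 bases and an E-box match 150 bases before the start. RefSeq windows were available for 7 of the 10 genes (9 windows), and Hes1, Hey1 and Heyl had none. Of the 9 windows 5 held an E-box match, 4 an N-box match and 0 the core of the Rbpj site, TGGGAA, searched like the others on both strands. In the 3 windows printed no match overlapped one of another motif. Over all 32851 RefSeq windows of this length, 66.2% held at least 1 E-box match and 12.2% at least 3, 36.7% held an N-box match and 21.6% the Rbpj core. A match is a description of letters and not a binding site.

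The balance between the Hes and Hey genes was compared within each library, where a scaling factor cancels. Hes6 made up 88.2%, 85.5% and 89.2% of the summed TPM of the 4 factors in knockout and 77.3%, 84.7% and 78.8% in control. The ratio of Heyl to Hes6 was 4.32%, 8.58% and 3.79% in knockout and 15.5%, 10.2% and 8.87% in control, with means of 5.56% ± 2.63 and 11.5% ± 3.50 (SD, n = 3). These groups did not overlap, although the nearest pair of libraries, knockout replicate 2 and control replicate 3, differed little. It was 1 of 12 ratios formed within the 3 roles, picked after the values were seen, and the other 11 overlapped. The ratio carries both single-gene differences described above and adds no independent measurement. Without Hes6, the summed TPM of Hes1, Hey1 and Heyl was 59.7 to 74.7 in knockout and 59.1 to 89.6 in control.

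**Figure D3:**
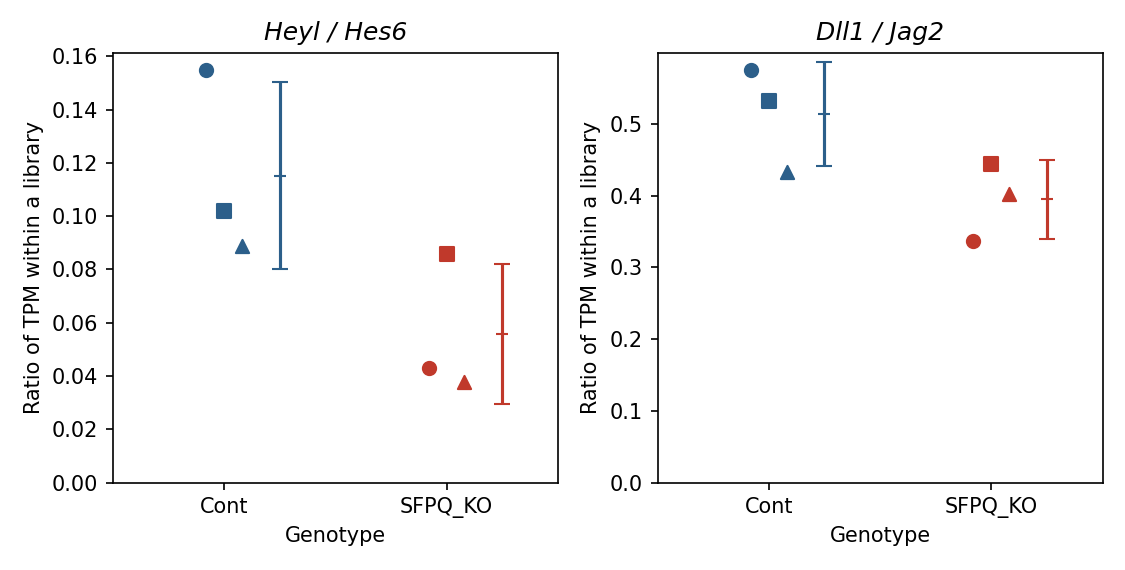
Ratio of the TPM of Heyl to Hes6 (left) and of Dll1 to Jag2 (right) within each library, with the mean and SD beside the points; symbols are replicates 1 (circle), 2 (square) and 3 (triangle). The genotypes are apart for Heyl over Hes6 and overlap for Dll1 over Jag2.

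Much of the variation of these genes lay among the control libraries. Control replicate 1 was the lowest control for 9 of the 10 genes, against 50.4% of all tested genes, and control replicate 2 was the highest for 7, against 49.2%. The median SD of the 10 genes on the log2(TPM + 1) scale was 0.444 in control and 0.175 in knockout, and for all tested genes it was 0.159 and 0.142. The control SD was the larger for 7 of the 10, against 56.1% of all tested genes. By coefficient of variation the knockout was wider for Notch2 (12.3% against 10.2%), Dll1 (9.47% against 5.07%) and Heyl (38.6% against 28.7%). The same control replicate 1 had the lowest Myod1 (274 TPM, against 506 to 619 TPM in the other 5 libraries) and the lowest Myog, the gene of myogenin (1297 TPM, against 1729 to 2536 TPM), and the highest Tnnt3 (9531 TPM, against 5784 to 7126 TPM) and Ckm (6778 TPM, against 2313 to 5579 TPM). Myog and Ckm were picked after their values were seen. Of the other listed differentiation markers, Mymk (by a narrow margin), Myh3 and Acta1 were also lowest in that library, and Mymx and Des were neither lowest nor highest. More of these markers were thus lowest than highest there, and they did not all go one way. Whether the state of differentiation of single cultures plays a part in the spread of the Notch genes was not tested. Without control replicate 1 the median log2 difference of the 10 genes was −0.31, with 9 of them lower in knockout, and without control replicate 2 it was 0.05, with 4 lower.

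The genes also varied together from library to library within the genotypes. After centring each genotype, the correlation over the 6 libraries was above 0 for 39 of the 45 pairs and at least 0.8 for 11. It was highest for Notch1 with Jag1 (r = 0.975), Notch1 with Hes6 (r = 0.931), Notch3 with Hey1 (r = 0.928) and Jag2 with Hes1 (r = 0.921). Hes1 and Heyl went apart (r = −0.431), and Dll1 had r of at most 0.64 with any other gene. These are descriptions over 6 points that share library and scaling, with few degrees of freedom. The same counts were not made for pairs of all tested genes, so they do not show a trait particular to the Notch genes.

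**Figure D4:**
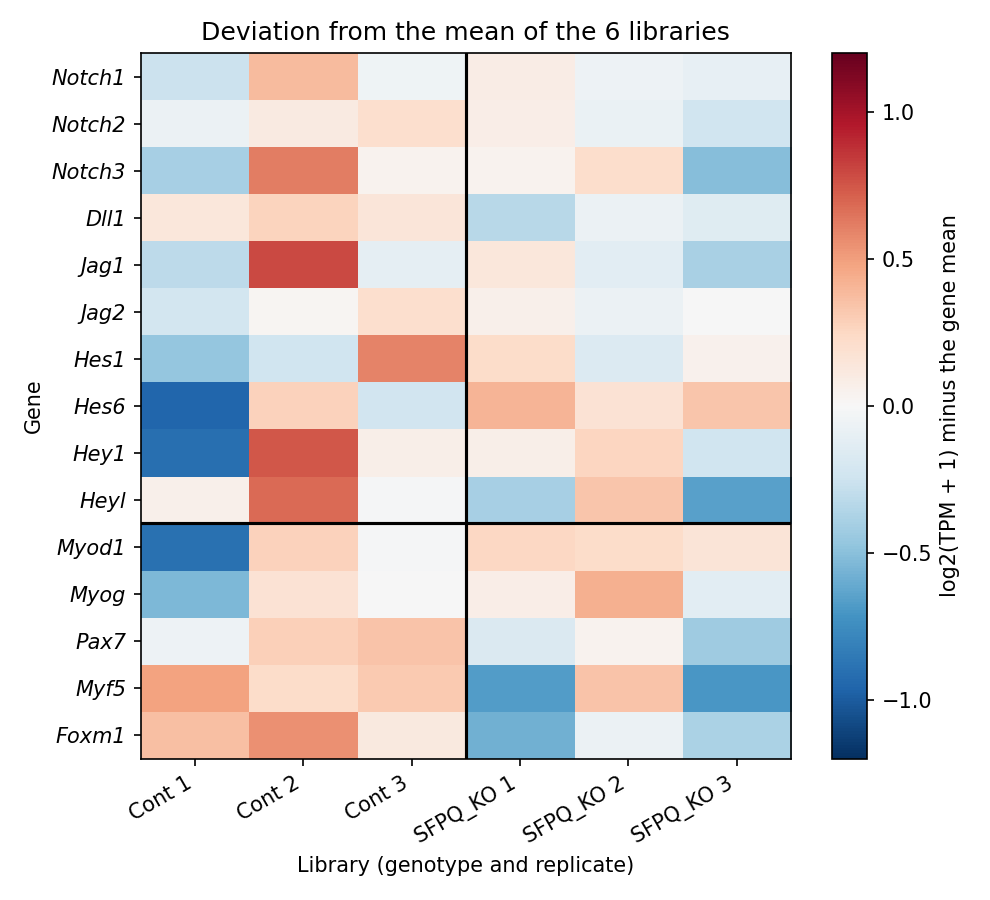
Deviation of log2(TPM + 1) from the mean of the 6 libraries (colour scale) for the 10 Notch genes and, below the line, Myod1, Myog, Pax7, Myf5 and Foxm1, by library. Foxm1, the proliferation marker with the smallest unadjusted limma p, was picked after the values were seen. Control replicate 1 is low for Hes6, Hey1 and Myod1, control replicate 2 is high for Notch3, Jag1, Hey1 and Heyl, and Dll1 is lower in all knockout libraries.

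The rest of the pathway was expressed in these cultures with few large differences. Of 62 other listed genes in 8 roles, 48 were tested. Of these, 0 were called higher and 0 lower, and the median log2 difference was −0.05. At an unadjusted limma p under 0.05 there were 0 on the higher and 2 on the lower side. Of all tested genes, 2.68% lay on that higher and 9.62% on that lower side. Groups did not overlap for 10 genes lower (20.8%, against 15.3% of all tested genes) and 1 higher (2.08%, against 4.27%). After median-of-ratios scaling these were 5 lower (10.4%, against 9.11%) and 4 higher (8.33%, against 9.33%), so both shares were then near the background.

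The 2 with an unadjusted p under 0.05 act in the nucleus. Tle4, a Groucho corepressor that Hes proteins recruit, was at 7.72 ± 0.80 TPM in knockout and 11.4 ± 3.13 in control (SD, n = 3, log2 difference −0.48, limma adjusted p = 0.381). Maml3, a Mastermind coactivator of the Notch complex, was at 6.12 ± 0.47 and 8.35 ± 1.52 TPM (log2 difference −0.38, limma adjusted p = 0.384). Of the 17 tested genes of this role, 9 had lower and 8 higher values. Rbpj itself, picked after its values were seen, stood at 14.9, 15.1 and 14.5 TPM in knockout and 17.3, 15.5 and 18.7 TPM in control. On this scale there was a narrow gap without overlap (log2 difference −0.20, SE 0.10). Median-of-ratios scaling divides control replicate 2 by 1.067 and knockout replicate 2 by 0.977, and the groups then overlap.

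In receptor cleavage 8 of 10 genes had lower values, where 64.5% of all tested genes did. After median-of-ratios scaling these were 6 of 10 and 50.2%. Ncstn, the nicastrin subunit of gamma-secretase, was at 75.6 ± 4.08 against 86.2 ± 6.73 TPM, and Adam17, a surface protease, at 25.6 ± 1.44 against 29.1 ± 1.77 TPM. In receptor glycosylation 3 of 4 tested genes had lower values, and 1 of 4 after that scaling, with the O-glucosyltransferase Poglut1 at 17.5 ± 0.62 against 19.9 ± 1.83 TPM and the fringe gene Rfng at 30.2 ± 7.002 against 26.4 ± 0.94 TPM. The other fringe genes were low, with Lfng at 0.50 to 1.30 TPM and Mfng at most at 0.30 TPM. In endocytosis and turnover 5 of 11 had lower values (3 after that scaling), among them Itch, a ubiquitin ligase that targets Notch (17.2 ± 1.17 against 20.5 ± 2.69 TPM), and 6 higher, among them the Deltex relative Dtx3 (92.1 ± 7.53 against 79.7 ± 6.86 TPM). None of these 6 genes passed, with limma adjusted p from 0.456 to 0.700.

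Of the 6 other listed target genes only Nrarp reached the level for testing, and of 5 listed satellite cell targets 4 did. Nrarp, a feedback inhibitor that Notch induces, was at 4.01, 3.81 and 2.97 TPM in knockout and 4.16, 3.66 and 6.73 TPM in control, with a log2 difference of −0.32 (SE 0.21, limma adjusted p = 0.578). Hes5 was listed at 0 in all 6 libraries, Hes2, Hes3 and Hes7 did not exceed 0.13 TPM, and Hey2 lay between 0.05 and 0.60 TPM. Among genes that Notch controls in quiescent satellite cells, the calcitonin receptor gene Calcr did not exceed 0.01 TPM. The collagen genes Col6a1 (23.3 ± 6.66 against 34.0 ± 18.7 TPM) and Col6a2 (13.1 ± 4.50 against 16.5 ± 10.8 TPM) overlapped between genotypes. Col5a1 (65.0 ± 11.7 against 67.1 ± 21.2 TPM) and Col5a3 (17.4 ± 6.13 against 17.3 ± 6.40 TPM), named to complete that list, overlapped too. Dlk2, a Delta-like membrane protein, was at 13.5, 13.8 and 6.58 TPM in knockout and 3.67, 12.9 and 8.44 TPM in control, again lowest in control replicate 1.

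**Figure D5:**
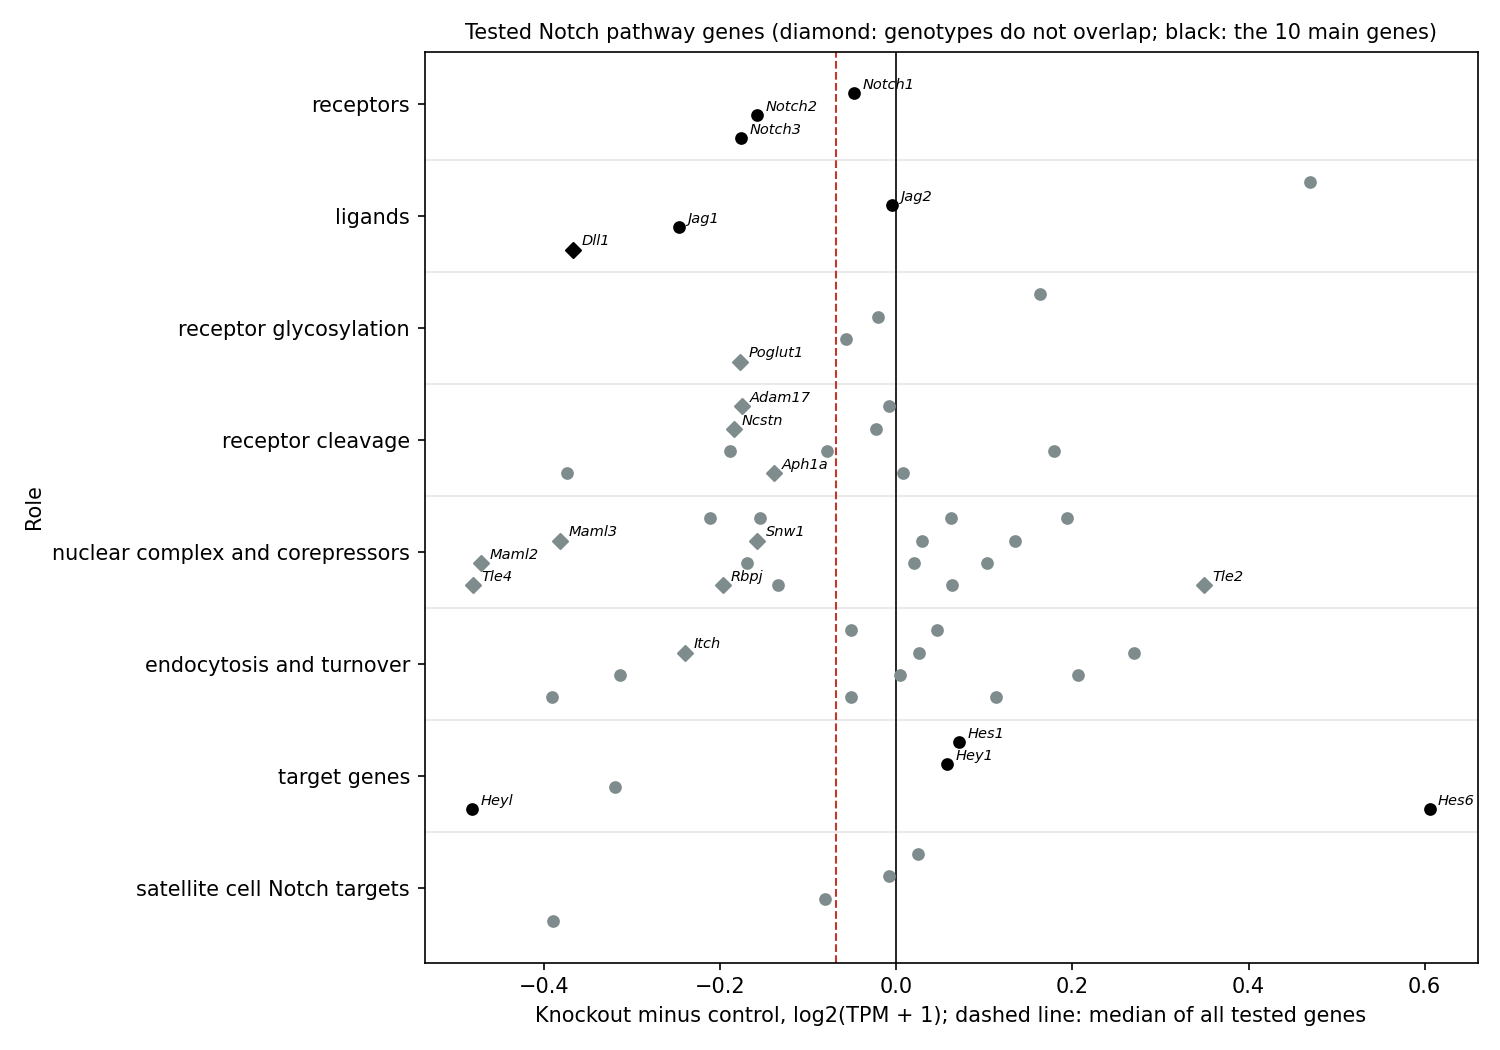
Knockout minus control on log2(TPM + 1) for each tested pathway gene (points) by role; black points are the 10 main genes, and diamonds are genes whose genotypes do not overlap. Most diamonds lie left of 0, with Tle2 the exception among the genes of the nuclear role.

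None of the markers of the myogenic state passed the test either. Of the 4 tested myoblast and satellite cell markers 2 had higher values in knockout, Myod1 (log2 difference 0.42) and Cdh15 (0.23), and 2 lower, Myf5 (−0.68) and Pax7 (−0.38), with limma adjusted p from 0.394 to 0.703. Myf5, a regulator of myoblasts picked with Pax7 after the values were seen, stood at 17.4, 36.0 and 17.1 TPM in knockout and 39.9, 33.2 and 35.4 TPM in control. Knockout replicate 2 was the high knockout library, as for Heyl, and the groups overlapped. Of the 8 differentiation markers 6 had higher and 2 lower values, where 64.5% of all tested genes were lower. The lower were Tnnt3 (−0.25) and the creatine kinase gene Ckm (−0.22), and the limma adjusted p of the 8 ran from 0.43 to 0.845. For 2 of the 8, Acta1 and Des, the knockout lay wholly above control, as for 4.27% of all tested genes. The 7 proliferation markers summed to 7.26 to 21.1 TPM in knockout and 22.4 to 28.7 TPM in control, with knockout replicate 2 again the highest knockout library. All 7 were lower in mean log2 value (limma adjusted p from 0.266 to 0.766). Of the 7, 5 lay under an unadjusted limma p of 0.05, where 9.62% of all tested genes lay on the lower side. For 5 the knockout lay wholly below control, as for 15.3% of all tested genes. The part of these markers in the values of Dll1, Heyl and Hes6 was not tested.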

How the data were processed

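PolyA RNA of 6 libraries was sequenced, and the authors deposited TPM values, 1 per RefSeq transcript accession. Reads were aligned with STAR 2.4.1d to mm10, per the submitters' processing notes. How reads were counted, with which annotation and whether by strand, is not stated in the labels. Of 34671 accessions, 30822 were named through a RefSeq table of GRCm38.p6 and 103 through GENCODE metadata, and 3746 kept their accession as a name. TPM was summed per symbol. Groups come from the library titles.

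The test used limma 3.58.1 (R 4.3.3) on log2(TPM + 1) for genes that reached 1 TPM in 3 or more libraries (intensity trend, no block, 2-sided, Benjamini-Hochberg adjustment over all tested genes at 0.05). This scale understates the change of low genes. Python 3.11.15, pandas 2.3.3 and matplotlib 3.10.9 were used for joining and plots. The fit was tested on simulated data. Alternatives covered pseudocounts, filters, scalings, moderation, a replicate block, NM accessions alone and each library left out.

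The 10 genes and all lists were chosen with earlier results of these data known. Beyond the 10, the text names the 2 genes per role with the smallest p and up to 2 markers per list with the highest TPM. It also names, for Heyl and Hes6, the 3 most similar genes, the mural gene Pdgfrb and defining markers at or near 0. Further genes are said to be picked after their values were seen, or are named to complete a list. 1 listed myoblast marker was not analysed here.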

Additional observations from a re-analysis of the deposited data

How the results depend on the processing

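Under each of the 16 alternatives 0 of the 10 Notch genes and 0 of the other listed pathway genes passed in limma with Benjamini-Hochberg adjustment, with 1 to 2 of the 10 at an unadjusted p under 0.05. Over all genes, where 0 were called, a pseudocount of 5 called 13, a mean TPM of at least 5 called 7 and limma without trend called 2. Dll1 stayed lower in all 16 (−0.42 to −0.29), with unadjusted p under 0.05 in each, and Notch2 and Heyl stayed lower and Hes6 higher. Directions near 0 turned: Hey1 to −0.007 with a pseudocount of 5, Notch1 to 0.021 and Jag2 to 0.068 after median-of-ratios scaling, and Notch1 to 0.055 and Jag2 to 0.034 after quantile normalization. With each library left out in turn, the log2 difference ranged from −0.19 to 0.13 for Notch1, −0.418 to 0.089 for Notch3, −0.465 to 0.089 for Jag1, −0.114 to 0.093 for Jag2, −0.14 to 0.39 for Hes1, −0.38 to 0.45 for Hey1, 0.28 to 0.90 for Hes6 and −0.77 to −0.26 for Heyl. Unadjusted counts over all genes went from 334 higher and 1199 lower to 719 and 710 after median-of-ratios scaling, and the median from −0.07 to −0.001. The cause was not tested. Libraries of the same replicate number were not alike in their deviations (r of −0.26, −0.247 and 0.049 for numbers 1 to 3). No library correlated best with its own number. Deviations from means of 3 libraries are too few to exclude a pairing. With the replicate block 0 genes were called, 224 higher and 835 lower lay under an unadjusted p of 0.05, and the adjusted p of Heyl was 0.439 and of Dll1 0.521. The unadjusted limma p of Heyl was 0.00838 with the block and 0.145 without it, and that of Dll1 was 0.0198 and 0.00897. Jag1 and Hey1 were not tested under the mean TPM filter of 5. TPM keeps no depth, so counting error is unknown.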

Other observations

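The genes most similar to Hes6 and Heyl over the 6 libraries were looked up by the Pearson r of log2(TPM + 1), as a description. For Hes6 they were Nes, the gene of the intermediate filament protein nestin of muscle and neural precursors (r = 0.996), Klhdc4 (r = 0.995) and Psmd10, a proteasome assembly chaperone (r = 0.993). Nes stood at 334.9, 272.8 and 318.7 TPM in knockout and at 130.1, 326.7 and 214.3 TPM in control, so it shared the low value of control replicate 1. For Heyl they were Lcmt1 (r = 0.995), Dcp1a (r = 0.991) and 3110040N11Rik (r = 0.99). Of 12451 genes compared, 322 had an r of at least 0.9 with Hes6 and 158 with Heyl.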
